A study of Mus musculus with 6 samples.

Results

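The respiratory chain and ATP synthase genes of the sciatic nerve were taken as all protein-coding genes whose symbols start with Ndufa, Ndufb, Ndufc, Ndufs, Ndufv, Uqcr, Cox4 to Cox8 or Atp5, together with Sdha to Sdhd and the mitochondrially encoded mt-Nd, mt-Co, mt-Cytb and mt-Atp genes. Assembly factors named Ndufaf were left out. Among the 55335 genes of the whole table, 99 genes matched, and 95 of them had a mean of at least 1 FPKM over the 6 libraries (fragments per length of transcript and depth of the library, a level per length that can be set beside that of another gene). Of these 95 members, 82 are nuclear and 13 mitochondrially encoded. The 4 members under the limit were Cox4i2, with a mean of 0.914 FPKM, and Cox8c, Cox7b2 and a second gene ID of Atp5o, each listed at 0 in all libraries. The members just inside it were Cox6b2, Ndufb2 and Atp5s, with means of 1.42, 2.08 and 2.89 FPKM.

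The libraries hold polyadenylated RNA of sciatic nerves taken from mice at postnatal day 14, when Schwann cells build myelin. The 3 icKO libraries came from RhoAfl/fl ChATCreERT2+ mice, in which an inducible Cre recombinase is expressed from the choline acetyltransferase (ChAT) gene, that is in cholinergic neurons such as spinal motoneurons, on homozygous floxed RhoA alleles. The 3 flox libraries came from RhoAfl/fl mice without Cre, so floxed RhoA is common to both groups. The labels give neither the sex of the mice, nor the time of induction, nor whether flox mice received the inducing drug. Nor do they say whether each library stands for a different animal. The p-values thus measure the spread between libraries, which by the labels alone may be technical.

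Mitochondrial respiration runs through an assembly line in the inner membrane. Complexes I and II pass electrons from NADH and succinate to ubiquinone, complex III passes them on to cytochrome c and complex IV to oxygen, and complexes I, III and IV pump protons that drive the ATP synthase, complex V. Mitochondrial DNA encodes the most hydrophobic core subunits of complexes I, III, IV and V, while all of complex II and the remaining subunits are made from nuclear genes, so the 2 genomes must supply parts for the same machines. In peripheral nerve this machinery serves axons, Schwann cells and the cells of the nerve sheath and vessels, and skeletal muscle is far richer in it than nerve.

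Rhoa, the targeted gene, was at 36.4, 33.6 and 33.2 FPKM in icKO nerves and at 36.5, 39.0 and 38.0 FPKM in flox nerves, a difference of -0.13 on the log2(FPKM + 1) scale (limma, adjusted p = 0.195). The cell bodies of motoneurons lie outside the nerve, and Chat, the gene that drives the recombinase, was listed at 0 in all icKO nerves and at no more than 0.012 FPKM in flox nerves. Schwann cell markers summed to 31190 to 35760 FPKM in icKO nerves and 29560 to 31560 FPKM in flox nerves. The depth estimated from the smallest FPKM steps was 17800000 to 19500000 fragments in icKO and 17200000 to 20600000 in flox libraries. Skeletal muscle markers stood apart by library. They summed to 30.4, 44.95 and 1839 FPKM in icKO nerves 1 to 3 and to 1480, 295 and 400 FPKM in flox nerves 1 to 3, so icKO 3 and flox 1 were the muscle-richest libraries of their groups. Flox 2 had 46.1 FPKM of Xist and no Ddx3y, a Y-linked gene, while the other libraries had at most 0.028 FPKM of Xist and 12.5 to 16.1 FPKM of Ddx3y. By these genes flox 2 cannot share its animal with the other libraries, and the flox spread includes this difference.

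Of the 82 nuclear members 66 had a difference below 0 (icKO minus flox, log2(FPKM + 1) scale), as had 6557 of all 12860 genes tested. Of the 82, 21 were called lower (25.6%) and 4 were called higher (4.88%), at an adjusted p under 0.05 in limma with Benjamini-Hochberg adjustment over 12860 genes. Among all genes tested 42.9% were called, 22.1% lower and 20.8% higher. The share called lower was thus near that of all genes, and the share called higher was below it. In 37 nuclear members (45.1%) every icKO library was below every flox library, against 28.9% of all genes. In 5 nuclear members every icKO library was above every flox library, which was the case in 28.4% of all genes. The median difference was -0.21 for nuclear members and -0.01 for all genes tested. Of the 13 mitochondrially encoded members 3 were called lower and 1 higher, with a median difference of -0.09. Since the nerve is a mixture, fewer cells of a type and less RNA per cell cannot be told apart.

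The nuclear count varied with the library left out. Without icKO 3, the muscle-richest icKO library, 36 nuclear members were called lower, and without flox 3 there were 11. Without icKO 3 and flox 1 together 30 were lower and 3 higher. Over all 12860 genes the number lower went from 2846 to 2900 without icKO 3, 1973 without flox 2 and 1912 without flox 3. Without icKO 3 and flox 1 together it was 2746, with 2137 higher. Rises over all genes were 1838 to 2558 on leaving out 1 library, against 2670 with all 6. Leaving out each library in turn left 1 to 3 nuclear members called higher, with 1 without flox 2, 3 without icKO 3 and 2 without each of the other 4. Of the 21 called lower, 11 were called under each of the alternatives that could test them (Ndufs8, Ndufb2, Ndufa5, Ndufb6, Ndufc2, Ndufb8, Uqcrb, Cox7a1, Atp5s, Atp5c1 and Atp5e). None of the 4 called higher was. Without icKO 3 and flox 1 together the calls of Ndufv2, Ndufb11, Atp5k and Atp5l and of the 4 called mitochondrially encoded genes were lost, while 12 nuclear members gained a call.

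**Figure D1:**
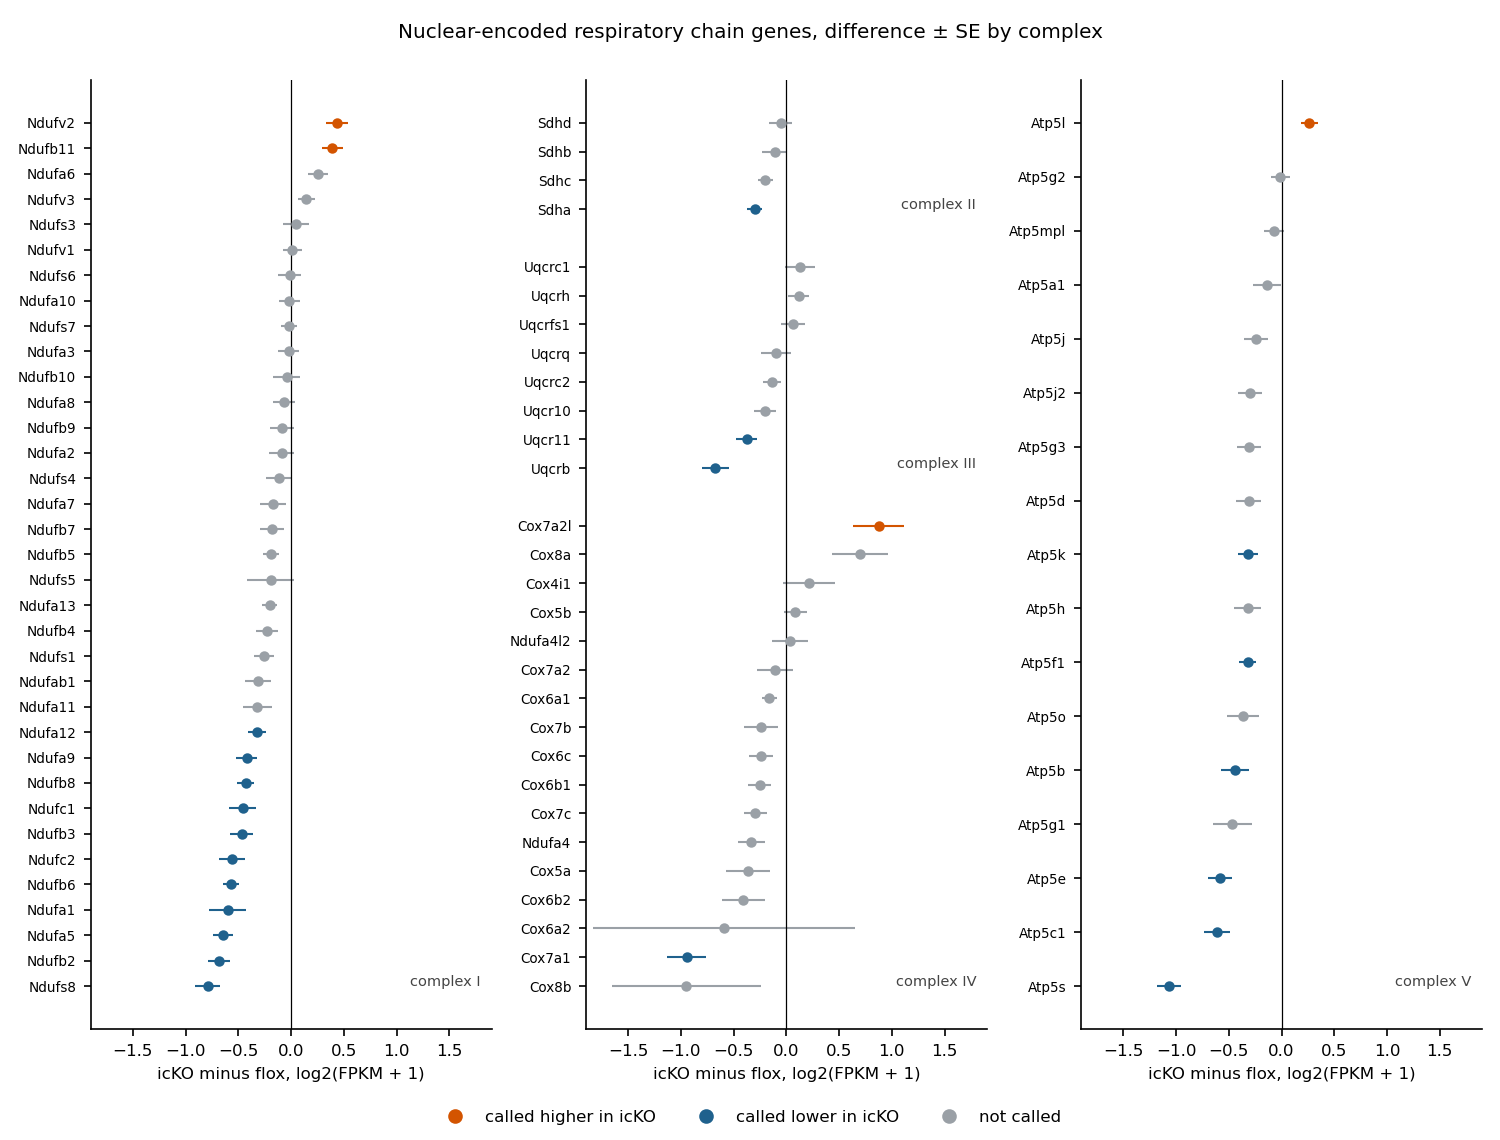
Difference (icKO minus flox, log2(FPKM + 1), x axis) of 81 of the 82 nuclear members, grouped by complex, with bars for the SE of the limma fit over 3 icKO and 3 flox libraries. Orange points were called higher in icKO (4), blue points lower (21) and grey points were not called (56). Complex V lies furthest to the left, with 16 of 17 members below 0.

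Complex I has the most members and the most calls. Of its 36 nuclear members 11 were lower (30.6%, against 22.1% of all genes), 2 higher (5.56%, against 20.8%) and 23 not called. Their median difference was -0.19. Its 7 nuclear core subunits, which carry the flavin and the iron-sulfur clusters, split evenly: 1 was lower, 1 higher, and their median difference was 0.01. The 29 accessory subunits, which surround the core and are needed for assembly, held 10 of the falls and 1 of the rises, with a median of -0.19. This split was not tested. Without flox 2 or flox 3 the falls in complex I numbered 7 and 6, and those among accessory subunits 6 and 5.

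Ndufs8, a core subunit with iron-sulfur clusters on the path to ubiquinone, was at 16.4, 12.0 and 14.0 FPKM in icKO nerves and at 24.6, 26.1 and 24.4 FPKM in flox nerves. The groups lay well apart, and the difference was -0.79 ± 0.12 (SE; limma, adjusted p = 0.00290). Ndufv2, a core subunit of the module that oxidises NADH, went the other way, at 40.6, 34.6 and 42.8 FPKM in icKO nerves and at 29.4, 29.6 and 27.2 FPKM in flox nerves. It was higher by 0.44 ± 0.10 (limma, adjusted p = 0.0141), but not called without flox 3 (adjusted p = 0.0574) or without icKO 3 and flox 1 together (adjusted p = 0.0542). Of the other core subunits described here none was called. Ndufs1, the largest iron-sulfur subunit, had 5.66 to 6.91 FPKM in icKO nerves and 7.30 to 8.16 FPKM in flox nerves without overlap, a difference of -0.26 (limma, adjusted p = 0.0644). Ndufv1, which binds NADH, and Ndufs3 and Ndufs7 of the ubiquinone-reducing module overlapped between the groups, with differences of 0.01, 0.05 and -0.02.

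Among the accessory subunits Ndufb2, a small subunit of the membrane arm, was at 1.35, 1.18 and 1.54 FPKM in icKO nerves and at 2.58, 2.64 and 3.15 FPKM in flox nerves. This was the member with the largest call among these subunits, at -0.68 ± 0.11 (limma, adjusted p = 0.00331), but it rests on about 23 fragments per library. Ndufa5, an accessory subunit of the matrix arm, was at 10.7, 8.91 and 9.64 FPKM in icKO nerves and 15.2, 15.1 and 17.0 FPKM in flox nerves, a ratio of means of 0.618 (limma, adjusted p = 0.00276). Every icKO library was below the lowest flox library in both genes. Ndufa1, an X-linked subunit of the membrane arm, was lower at -0.60 (limma, adjusted p = 0.0330), and its call was lost without icKO 1, icKO 2, flox 2 or flox 3 (adjusted p = 0.0933, 0.0870, 0.0712 and 0.104). The other accessory subunits called lower were Ndufb6, Ndufc2, Ndufb3, Ndufc1, Ndufb8, Ndufa9 and Ndufa12, with differences between -0.57 and -0.32. Of these, Ndufb3 lost its call without flox 3, Ndufa9 without flox 2 or flox 3, Ndufc1 without any 1 flox library, and Ndufa12 without any 1 library other than icKO 3.

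Ndufb11, another X-linked subunit of the membrane arm, was the accessory subunit called higher. It was at 55.3, 46.2 and 53.1 FPKM in icKO nerves and at 38.8, 36.3 and 42.0 FPKM in flox nerves, a difference of 0.39 ± 0.10 (limma, adjusted p = 0.0205). The call was lost without icKO 1, flox 1 or flox 2 (adjusted p = 0.0619, 0.0551 and 0.0762). Ndufa1 and Ndufb11 thus moved in opposite directions, and the third X-linked member, Cox7b of complex IV, was not called (limma, adjusted p = 0.273).

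Complex II and complex III have the fewest nuclear members. Of the 4 in complex II 1 was lower (25.0%, near the 22.1% of all genes) and none was higher. In complex II, whose 4 subunits are all nuclear, Sdha, the flavoprotein that oxidises succinate, was at 38.2, 39.5 and 41.7 FPKM in icKO nerves and 48.2, 49.3 and 50.3 FPKM in flox nerves. The narrow spread within each group made a small difference, -0.30 ± 0.07, a call (limma, adjusted p = 0.0172), which was lost without flox 2 or flox 3 (adjusted p = 0.0631 and 0.0713). Sdhc, a membrane anchor, was at 24.8 to 25.0 FPKM in icKO nerves and 28.2 to 29.4 FPKM in flox nerves (limma, adjusted p = 0.0524). The iron-sulfur subunit Sdhb and the other anchor, Sdhd, overlapped between the groups, with differences of -0.11 and -0.05.

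In complex III 2 of 8 nuclear members were lower (25.0%, near the 22.1% of all genes) and the other 6 were not called. Uqcrb, a small subunit next to cytochrome b, was at 21.6, 22.7 and 29.5 FPKM in icKO nerves and at 39.1, 37.3 and 42.2 FPKM in flox nerves, with icKO 3 the highest of its group. The difference was -0.67 ± 0.13 (limma, adjusted p = 0.00720). Uqcr11, another small subunit, was at 36.5, 30.3 and 34.7 FPKM in icKO nerves and 41.5, 43.8 and 47.3 FPKM in flox nerves, a difference of -0.38 (limma, adjusted p = 0.0216) that was not called without flox 2 or flox 3 (adjusted p = 0.0646 and 0.0821). The electron-carrying Rieske protein Uqcrfs1 and the structural core proteins Uqcrc1 and Uqcrc2 overlapped between the groups, with differences of 0.06, 0.13 and -0.14.

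Complex V showed the lowest median, -0.32. Of its nuclear members 6 were lower (35.3%, against 22.1% of all genes), 1 higher (5.88%, against 20.8%) and 10 not called. Without flox 3 there were 3 falls, and without icKO 3 there were 10. In 11 of its 17 nuclear members (64.7%) all icKO libraries were below all flox libraries, against 28.9% of all genes. The catalytic F1 head was lower in 3 of its 5 subunits, with a median of -0.44. Atp5c1, the rotating gamma subunit, was at 33.5, 36.6 and 43.7 FPKM in icKO nerves and at 63.8, 52.9 and 57.8 FPKM in flox nerves, a difference of -0.61 ± 0.12 (limma, adjusted p = 0.00877). Atp5e, the epsilon subunit, was at 14.2, 12.4 and 16.2 FPKM in icKO nerves and at 21.9, 20.1 and 23.4 FPKM in flox nerves, a difference of -0.59 ± 0.11 (limma, adjusted p = 0.00781). In both genes the highest icKO library was icKO 3, and it was below the lowest flox library.

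The catalytic beta subunit Atp5b was at 82.7, 84.4 and 113 FPKM in icKO nerves and at 118, 131 and 129 FPKM in flox nerves. Its icKO 3 value came close to flox 1, and the difference was -0.44 (limma, adjusted p = 0.0385). The call was lost on leaving out any 1 library other than icKO 3, with adjusted p from 0.0619 without flox 1 to 0.113 without icKO 1. Atp5a1, the alpha subunit that forms a ring with beta, was at 78.0, 82.2 and 107 FPKM in icKO nerves and at 93.2, 98.4 and 99.5 FPKM in flox nerves, and the groups overlapped (limma, adjusted p = 0.418). Without icKO 3 it was called lower, by 0.30 (adjusted p = 0.0385). Atp5o, the collar of the stalk, was at 26.7, 25.4 and 37.6 FPKM in icKO nerves and at 37.7, 37.7 and 39.2 FPKM in flox nerves (limma, adjusted p = 0.0919).

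Atp5s, known as coupling factor B, had the largest called difference of all 95 members. It was at 1.79, 1.33 and 1.43 FPKM in icKO nerves and at 4.87, 3.87 and 4.06 FPKM in flox nerves, a ratio of means of 0.355 and a difference of -1.07 ± 0.11 (limma, adjusted p = 0.00111). It rests on about 40 fragments per library. Atp5f1, the stalk subunit b, and Atp5k, the membrane subunit e, were also lower, each by 0.32. Atp5f1 was not called without flox 2 or flox 3 (adjusted p = 0.0667 and 0.0709), and Atp5k was not called without icKO 2, icKO 3, flox 1 or flox 3 (adjusted p = 0.0872, 0.0621, 0.104 and 0.109). Atp5l, the membrane subunit g that sits next to subunit e, was the complex V member called higher. It was at 9.19, 9.51 and 9.55 FPKM in icKO nerves and at 7.36, 7.38 and 8.31 FPKM in flox nerves, a difference of 0.26 ± 0.08 (limma, adjusted p = 0.0329), and was not called without icKO 1, icKO 2, icKO 3, flox 1 or flox 2 (adjusted p = 0.0583, 0.0668, 0.0616, 0.0951 and 0.120).

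The promoters of Atp5k, Uqcr11 and Atp5l are shown because these 3 called members each hold cores for both NRF1 and the ETS family (which includes GABPA), regulators known for respiratory chain genes, yet Atp5k and Uqcr11 were lower in icKO nerves and Atp5l higher. The sequences are RefSeq windows of 300 bases on build GRCm38.p6, from 250 bases before to 50 after the start of the gene, 5′ to 3′ on its own strand. Capitals mark the NRF1 core GCGCATGCG and the ETS core CCGGAAG on either strand, and the 10 capitals in Atp5k are overlapping matches on both strands.

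Atp5k, chr5:108434350-108434649, minus strand: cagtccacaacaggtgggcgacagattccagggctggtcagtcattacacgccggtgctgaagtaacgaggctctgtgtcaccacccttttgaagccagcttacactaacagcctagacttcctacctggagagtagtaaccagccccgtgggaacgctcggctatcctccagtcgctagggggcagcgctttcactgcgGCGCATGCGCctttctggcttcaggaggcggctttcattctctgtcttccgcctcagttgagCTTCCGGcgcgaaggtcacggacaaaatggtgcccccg
Uqcr11, chr10:80406772-80407071, minus strand: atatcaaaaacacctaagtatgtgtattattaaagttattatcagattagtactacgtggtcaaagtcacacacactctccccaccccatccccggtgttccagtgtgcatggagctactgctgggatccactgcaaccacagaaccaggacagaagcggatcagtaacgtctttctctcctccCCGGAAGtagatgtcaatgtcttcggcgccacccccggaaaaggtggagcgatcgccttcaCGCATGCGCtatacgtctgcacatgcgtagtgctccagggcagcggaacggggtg
Atp5l, chr9:44920693-44920992, minus strand: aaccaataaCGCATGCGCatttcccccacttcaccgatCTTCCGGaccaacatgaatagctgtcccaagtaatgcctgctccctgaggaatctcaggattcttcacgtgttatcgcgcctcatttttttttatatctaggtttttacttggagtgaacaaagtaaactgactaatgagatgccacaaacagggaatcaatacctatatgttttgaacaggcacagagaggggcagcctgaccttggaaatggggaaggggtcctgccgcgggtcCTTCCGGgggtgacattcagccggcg

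RefSeq windows were found for 68 of the 82 nuclear members, 73 windows in all. The NRF1 core was present in 10.96% of them, against 1.75% among the 32851 windows of all genes. The ETS core was present in 21.9%, against 8.86%, and the YY1 core AAGATGGCG, searched on both strands as well, in 9.59%, against 1.40%. The NRF1, ETS and YY1 cores were found in similar shares of the windows of members called lower (9.09%, 22.7% and 9.09% of 22) as in those of members not called (10.6%, 21.3% and 10.6% of 47). These are matches of letters, not binding sites.

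Among nuclear members, those of complex IV had the widest range of differences. Its 17 nuclear members count Ndufa4 and Ndufa4l2, whose names place them in complex I but which belong to complex IV. Of the 17, 1 was lower and 1 higher (5.88% each, against 22.1% and 20.8% of all genes), and 15 were not called. The median was -0.24. Without icKO 3, 7 were called lower, and without icKO 3 and flox 1 together 7 were lower and 3 higher. The widely expressed subunits Cox4i1, Cox5a and Cox5b were not called. Cox4i1 was at 101, 77.1 and 65.5 FPKM in icKO nerves and at 97.2, 60.9 and 54.3 FPKM in flox nerves, so its spread within the groups exceeded the difference of 0.22. Without icKO 3 and flox 1 together it was called higher, by 0.61 (adjusted p = 0.0385). Cox5a was at 13.6, 11.4 and 21.1 FPKM in icKO nerves and at 19.7, 18.1 and 20.5 FPKM in flox nerves, with icKO 3 above all flox libraries (limma, adjusted p = 0.195), and was called lower without icKO 3 by 0.60.

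Several subunits of complex IV exist as paralogs, 1 of them typical of heart and skeletal muscle. Cox7a1 and Cox8b are also known from brown fat. Of 6 brown adipocyte markers 2 reached the mean of 1 FPKM, and 1 of these, Otop1, was lower, at 0.267, 0.290 and 0.441 FPKM in icKO nerves and 5.35, 5.43 and 6.04 FPKM in flox nerves (limma, adjusted p = 2.42e-04). The other, Cpt1b, had a difference of 0.60 in the opposite direction and was not called (limma, adjusted p = 0.190). It was at 2.34, 2.57 and 2.71 FPKM in icKO nerves and 2.905, 1.303 and 0.423 FPKM in flox nerves. The part of brown fat in the Cox7a1 and Cox8b values was not tested. Cox7a1, the muscle form of subunit VIIa, was at 1.67, 1.27 and 2.40 FPKM in icKO nerves and at 5.01, 3.37 and 4.57 FPKM in flox nerves. It was lower in icKO, by 0.94 ± 0.18 (limma, adjusted p = 0.00761), including in icKO 3, where muscle markers were highest. Without icKO 3 and flox 1 the difference was -1.003 (adjusted p = 0.0131), and with the muscle markers as a covariate it was -0.84 (adjusted p = 0.00630). It rests on about 26 fragments per library. Cox7a2l, which joins complexes III and IV into supercomplexes, was at 67.1, 111 and 81.2 FPKM in icKO nerves and at 61.8, 37.5 and 41.0 FPKM in flox nerves. Both groups were widely spread, and the difference was 0.87 ± 0.24 (limma, adjusted p = 0.0264), not called without icKO 2, icKO 3, flox 2 or flox 3 (adjusted p = 0.0686, 0.0517, 0.0815 and 0.0835). The common form Cox7a2 overlapped between the groups.

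The make-up of the VIIa family was compared as well. Cox7a1 held 1.62% ± 0.58 of the summed FPKM of Cox7a1, Cox7a2 and Cox7a2l in icKO nerves and 5.59% ± 0.57 in flox nerves (SD, n = 3 each). Cox7a2l held 76.0% ± 7.6 in icKO nerves and 59.95% ± 5.67 in flox nerves, without overlap. The exact permutation test over the 6 libraries, two-sided, gave p = 0.1 for each, the smallest it can give, and 0.28 after Benjamini-Hochberg adjustment over the 14 paralog shares compared. The shares of Cox7a2, Atp5g2 and Atp5g3 gave the same p of 0.1 and adjusted p of 0.28, and the remaining shares gave larger ones.

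**Figure D2:**
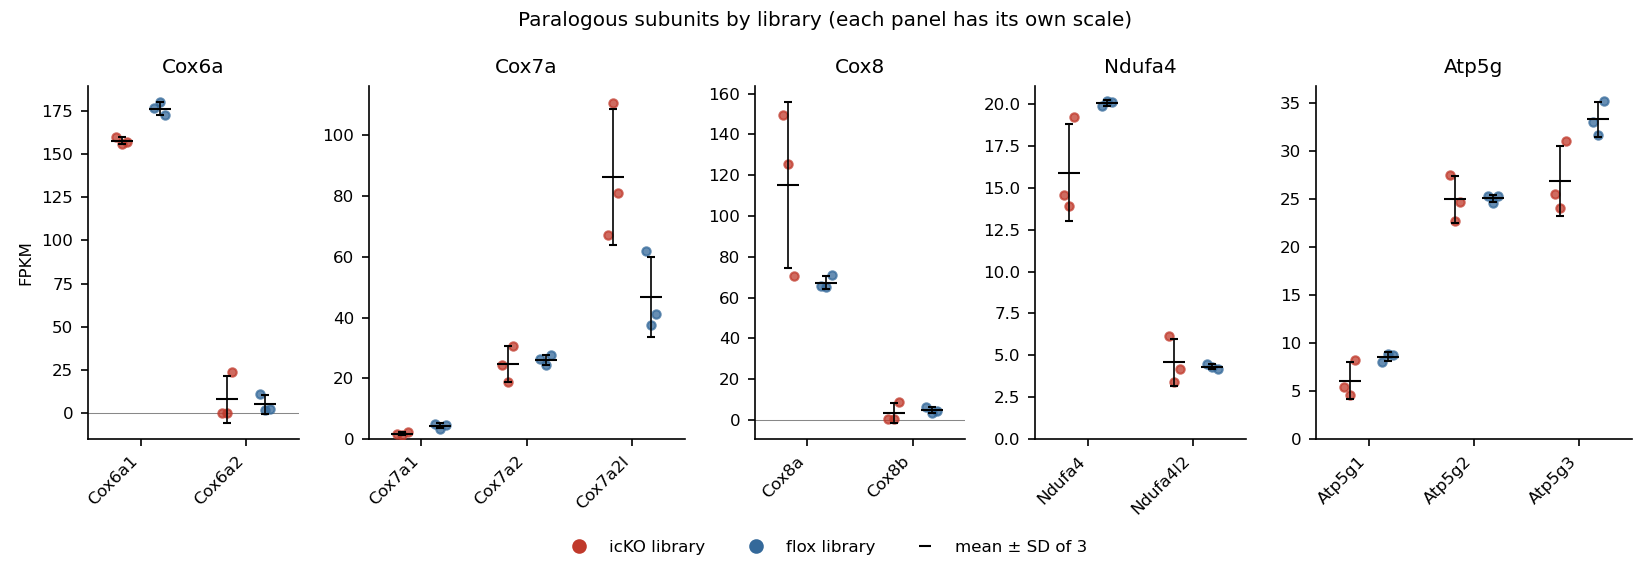
FPKM (y axis, a separate scale in each panel) of paralogous subunits in 3 icKO libraries (red, left) and 3 flox libraries (blue, right), with black bars for the mean ± SD. Cox7a1 is lower and Cox7a2l higher in all icKO libraries, while Cox6a2 and Cox8b are high in icKO 3, at 23.8 and 8.95 FPKM.

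The muscle forms Cox6a2 and Cox8b had their highest values where muscle markers were highest. Cox6a2 was at 0, 0.457 and 23.8 FPKM in icKO nerves and at 11.5, 1.99 and 2.31 FPKM in flox nerves, and Cox8b at 0.583, 0.571 and 8.95 FPKM in icKO nerves and at 6.26, 3.50 and 4.44 FPKM in flox nerves. Both were highest in icKO 3 and, among flox nerves, in flox 1, which are the libraries with the most muscle RNA. Neither was called (limma, adjusted p = 0.724 for Cox6a2 and 0.312 for Cox8b). Without icKO 3 both were called lower, by 2.04 for Cox6a2 and by 1.83 for Cox8b (adjusted p = 0.0495 and 0.00279). Cox8a, the common form of subunit VIII, was at 150, 126 and 70.4 FPKM in icKO nerves and at 65.6, 65.4 and 71.0 FPKM in flox nerves. The icKO 3 value lay within the flox range, the difference of 0.70 was not called (limma, adjusted p = 0.0705), and without icKO 3 it was 1.02 and called (adjusted p = 0.00241). Cox6b2, known from testis, and the hypoxia-induced Ndufa4l2 overlapped between the groups.

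The nuclear members as a whole were set beside the muscle content of each library. The median difference of the 82 nuclear members from their flox means was -0.22, -0.32 and -0.04 in icKO 1 to 3, so icKO 3, with 1839 FPKM of muscle markers, was nearest to the flox nerves. It was 0.01, -0.05 and 0.04 in flox 1 to 3, and flox 1, the muscle-rich flox library, did not stand out. Of the 23 skeletal muscle markers tested 1 was called lower, Pvalb, and 12 were without icKO 3. Adipocyte markers differed between the groups: 9 of 10 were called lower, and their sum was 111 to 198 FPKM in icKO nerves and 485 to 588 FPKM in flox nerves. Fibroblast markers were lower in 5 of 8 and higher in 1, Pdgfra, endothelial markers lower in 3 of 6 and higher in 1, Pecam1, and smooth muscle markers lower in 3 of 7, whereas 4 of 5 neuronal markers were higher. Of all genes tested 22.1% were lower and 20.8% higher. The 3 smooth muscle calls were lost without icKO 1, icKO 2 or flox 2, and the fibroblast falls numbered 3 without icKO 1, icKO 2, flox 2 or flox 3. Pdgfra lost its call without any 1 icKO library or flox 3, and Pecam1 without icKO 2 or any 1 flox library. Among neuronal markers Prph lost its call without icKO 1, icKO 2 or any 1 flox library. Nefl, Nefm and Nefh kept theirs under every alternative that could test them. The part of these cell types in the differences of respiratory chain genes was not tested. With the muscle markers as a covariate 21 nuclear members were called lower and 4 higher, but not the same ones: Atp5k and Atp5l lost their calls, while Cox8b was called lower and Cox8a higher (adjusted p = 0.0375 and 0.0168).

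**Figure D3:**
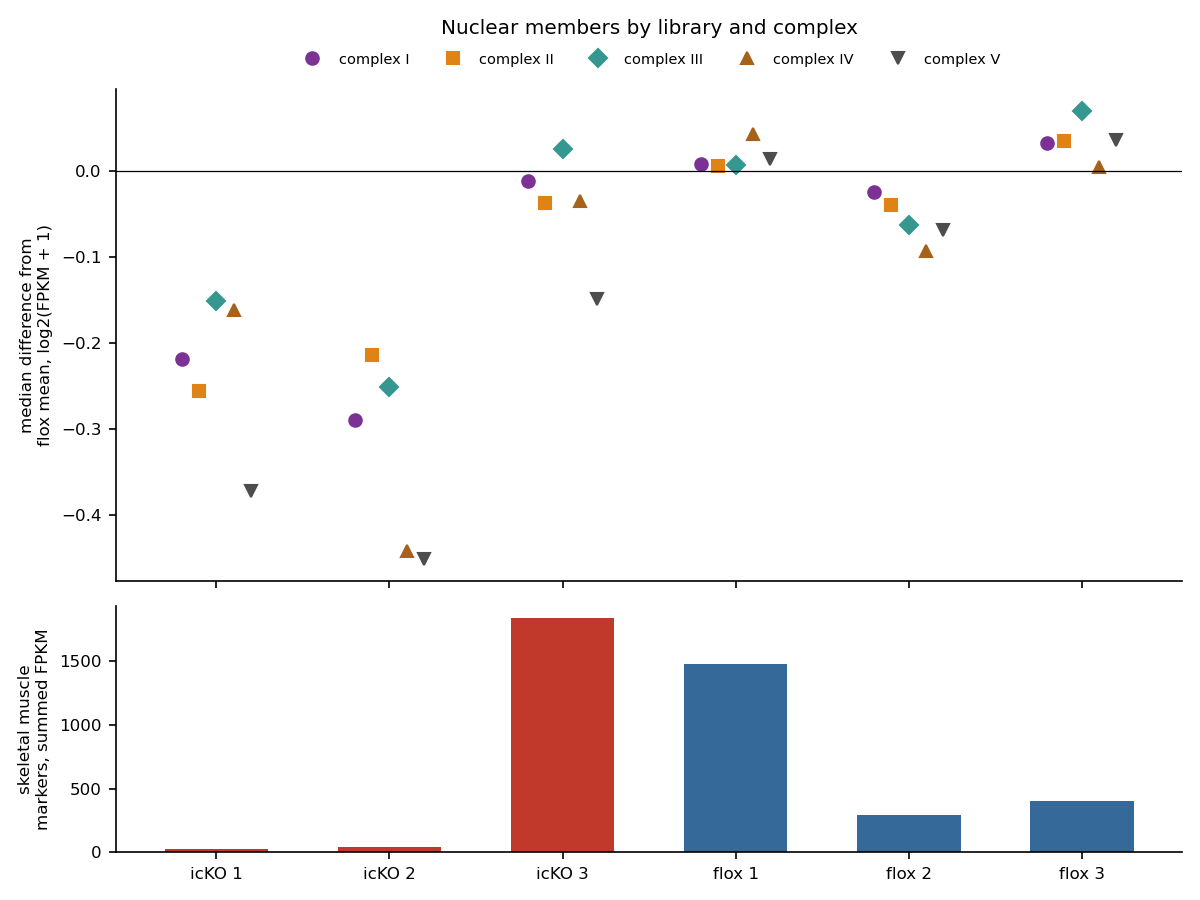
Top, median difference of the nuclear members of each complex from the flox mean (log2(FPKM + 1), y axis) in each icKO and flox library. Bottom, summed FPKM of skeletal muscle markers in the libraries, up to 1839 FPKM in icKO 3, whose medians lie nearer to 0 than those of icKO 1 and icKO 2.

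The 13 mitochondrially encoded genes made up 12.6%, 11.9% and 12.4% of all FPKM in icKO nerves and 12.2%, 12.0% and 13.4% in flox nerves. The 82 nuclear members made up 0.769%, 0.768% and 0.843% in icKO nerves and 0.886%, 0.844% and 0.845% in flox nerves. The sum over mitochondrially encoded genes was 16.4, 15.5 and 14.7 times that over nuclear members in icKO nerves and 13.8, 14.2 and 15.8 times in flox nerves, so the groups overlapped in this ratio.

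Mitochondrial DNA is read into long transcripts from both strands, which are cut at the transfer RNAs between the genes. All its protein genes but mt-Nd6 lie on the same strand. Of the 7 complex I genes 3 were lower (42.9%, against 22.1% of all genes), and 1 without icKO 2, icKO 3, flox 1 or flox 3. The mt-Nd3 gene was at 369, 367 and 325 FPKM in icKO nerves and at 486, 453 and 532 FPKM in flox nerves (-0.47 ± 0.10; limma, adjusted p = 0.0110), and was not called without icKO 3 and flox 1 together (adjusted p = 0.0515). The mt-Nd2 gene was at 1280, 1044 and 1200 FPKM in icKO nerves and at 1558, 1446 and 1808 FPKM in flox nerves (-0.45 ± 0.13; limma, adjusted p = 0.0286), and was not called without icKO 2, icKO 3, flox 1 or flox 3 (adjusted p = 0.0775, 0.0544, 0.0571 and 0.0962). The mt-Nd4 gene was at 2017, 1953 and 2000 FPKM in icKO nerves and at 2670, 2381 and 2525 FPKM in flox nerves (-0.34 ± 0.09; limma, adjusted p = 0.0226), and without any 1 library other than flox 2 it was not called, with adjusted p from 0.0527 without icKO 3 to 0.0782 without flox 3.

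The gene called higher was mt-Nd6, on the opposite strand from the rest, at 1278, 927 and 1383 FPKM in icKO nerves and at 836, 666 and 864 FPKM in flox nerves (0.59 ± 0.18; limma, adjusted p = 0.0377). It was not called without any 1 library other than icKO 2, with adjusted p up to 0.114 without icKO 1. Strand handling is not given in the sources used here, and without it fragments of mt-Nd6 and of the RNA antisense to it cannot be told apart. The remaining complex I genes mt-Nd1, mt-Nd4l and mt-Nd5 overlapped between the groups, with differences of -0.09, -0.01 and 0.19.

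In complexes III and IV none of the 4 mitochondrially encoded genes was called in limma, and 1 of them, mt-Co3, was below 0.05 before adjustment. The icKO libraries were all below the flox libraries in mt-Cytb (3664, 3696 and 3687 FPKM in icKO nerves, 4354, 3986 and 4802 FPKM in flox nerves; limma, adjusted p = 0.09998), in mt-Co3 (2265, 2364 and 2115 FPKM in icKO, 2908, 2475 and 2993 FPKM in flox; adjusted p = 0.0632) and in mt-Co2 (3076, 3154 and 2880 FPKM in icKO, 3371, 3195 and 3487 FPKM in flox; adjusted p = 0.258). The most abundant, mt-Co1, was at 8290, 7948 and 7946 FPKM in icKO nerves and at 7928, 7404 and 8069 FPKM in flox nerves, a difference of 0.05. Of the ribosomal RNAs of the organelle, mt-Rnr1 was lower, at 546, 445 and 328 FPKM in icKO nerves and 843, 629 and 768 FPKM in flox nerves (limma, adjusted p = 0.0217), and mt-Rnr2 was not called.

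**Figure D4:**
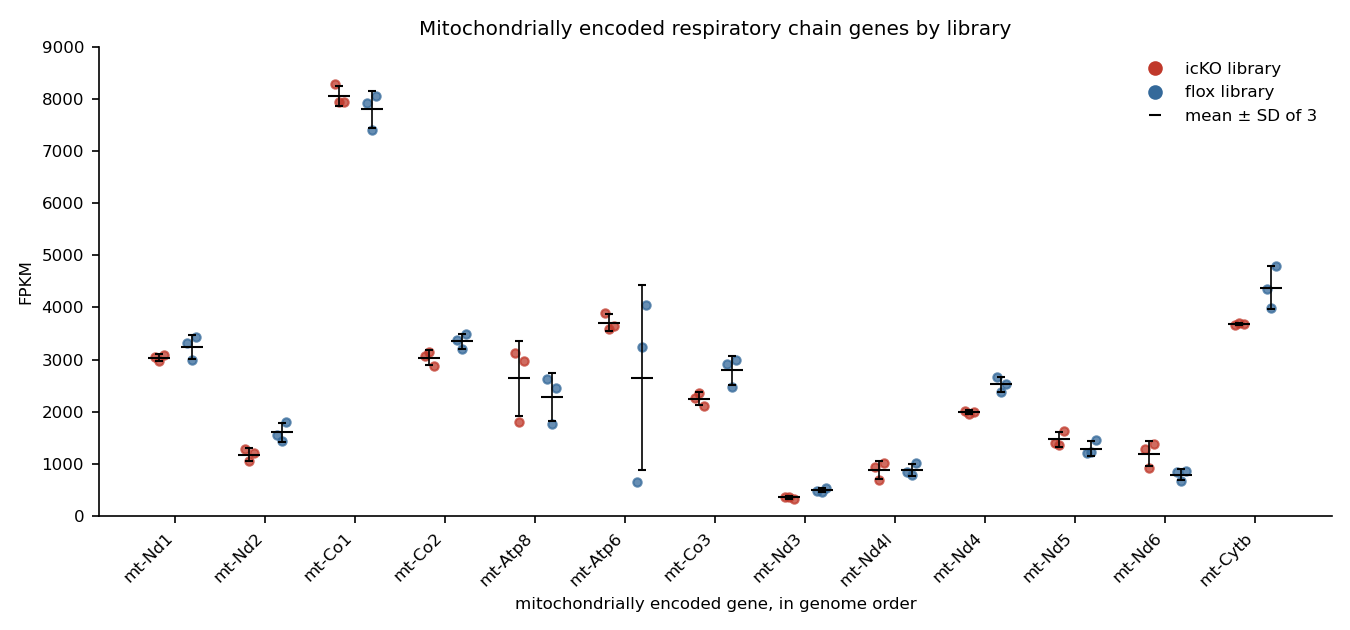
FPKM (y axis) of the 13 mitochondrially encoded genes in genome order in 3 icKO libraries (red, left) and 3 flox libraries (blue, right), with black bars for the mean ± SD. The groups overlap or nearly touch in most genes, and mt-Atp6 in flox 1, at 654 FPKM, lies far below the other libraries.

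In complex V, mt-Atp6 was at 3901, 3585 and 3647 FPKM in icKO nerves and at 654, 3247 and 4050 FPKM in flox nerves, and the low value of flox 1 made its difference 0.86 (limma, adjusted p = 0.319). Without flox 1 the difference was 0.03. Mouse chromosome 1 holds a stretch of mitochondrial DNA whose annotated pseudogenes copy 7 of the 13 genes, 6 of them without a mismatch over the aligned length. Gm10925 copies mt-Atp6 over 678 bases, and the first 60 bases of both transcripts are printed to show that fragments of this stretch carry nothing that would assign them to either gene.

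mt-Atp6, mitochondrial: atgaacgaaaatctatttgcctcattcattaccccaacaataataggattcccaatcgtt
Gm10925, chromosome 1: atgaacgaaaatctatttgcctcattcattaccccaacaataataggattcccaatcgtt

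Gm10925 was at 4084, 3706 and 3822 FPKM in icKO nerves and at 3616, 3371 and 4212 FPKM in flox nerves, with flox 1 among the others. The sum of the pair differed by 0.30 between the groups (limma, adjusted p = 0.336). The copies of mt-Co2, mt-Co3, mt-Nd3 and mt-Nd4l carried nearly the same FPKM as the genes themselves, and in Gm28438, the copy of mt-Nd3, icKO nerves were lower too (limma, adjusted p = 0.00996). Together the 7 copies held 5.25% to 5.95% of all FPKM, and what part of it is nuclear RNA was not tested. With each gene summed with its copy, mt-Nd3 and mt-Nd4 were lower by 0.47 and 0.34 (adjusted p = 0.0110 and 0.0243). Since gene and copy are identical over the aligned bases and can share fragments, neither the copies nor the sums are separate evidence of these falls.

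Near-identical expressed copies also touch nuclear members. For 10 of them a pseudogene with a mean of at least 1 FPKM matched the transcript at 95% identity or more over at least 200 bases. Among called members this concerned Atp5l, Atp5f1, Ndufa12 and Cox7a2l. Atp5l and its copy Gm10221 summed to 33.7, 34.97 and 36.4 FPKM in icKO nerves and to 25.7, 25.5 and 28.3 FPKM in flox nerves, and Gm10221 alone was higher as well (limma, adjusted p = 0.00636). The copy is identical to Atp5l over 309 bases, so neither it nor the sum is separate evidence. Ndufb4, not called itself, shares 390 bases with Ndufb4c, annotated as a pseudogene but at a higher level, with 18.4, 16.2 and 19.1 FPKM in icKO nerves and 21.8, 25.6 and 27.0 FPKM in flox nerves (limma, adjusted p = 0.0170).

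The helpers that build the complexes showed more falls than the subunits did. Of 47 assembly factors tested 22 were lower (46.8%, against 22.1% of all genes) and 2 higher (4.3%, against 20.8%). The median difference was -0.22. Coa3, which assists the synthesis and assembly of the first complex IV subunit, was at 12.4, 8.72 and 11.5 FPKM in icKO nerves and at 24.7, 27.0 and 27.8 FPKM in flox nerves, lower by 1.22 (limma, adjusted p = 0.00113). Tmem70, a complex V assembly factor, averaged 4.54 ± 0.95 FPKM in icKO nerves and 9.60 ± 0.35 FPKM in flox nerves (limma, adjusted p = 0.00244), and Uqcc2, which serves complex III, 9.92 ± 1.42 FPKM in icKO nerves and 19.6 ± 0.92 FPKM in flox nerves (SD, n = 3 each; limma, adjusted p = 0.00157). Of the 2 called higher, Ttc19, a complex III factor, was at 11.1, 11.2 and 10.9 FPKM in icKO nerves and at 3.87, 4.03 and 4.25 FPKM in flox nerves. Its difference was 1.26 ± 0.07 (limma, adjusted p = 3.15e-04). The other, Cox19, lost its call without icKO 1, icKO 3 or any 1 flox library. Without flox 2 or flox 3, 16 assembly factors were lower. The difference in share between assembly factors and subunits was not tested.

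Among electron carriers and ubiquinone synthesis genes 5 of 19 were lower (26.3%) and 1 higher (5.3%), with 3 falls without flox 3. The share lower was near the 22.1% of all genes, and the share higher was below their 20.8%. Sqor, which feeds electrons from sulfide to ubiquinone, averaged 1.52 ± 0.26 FPKM in icKO nerves and 4.999 ± 0.399 FPKM in flox nerves (SD, n = 3 each; limma, adjusted p = 6.52e-04). Cycs, the cytochrome c that links complexes III and IV, was at 7.35, 5.58 and 10.5 FPKM in icKO nerves and at 13.8, 12.8 and 15.2 FPKM in flox nerves (-0.80; limma, adjusted p = 0.0189), and was not called without icKO 1 or flox 3 (adjusted p = 0.0575 and 0.0647). Of 7 carriers and uncoupling proteins 2 were lower (28.6%, against 22.1% of all genes), and 1 without icKO 1 or flox 3. Among them was Ucp2, at 14.7 ± 6.5 FPKM in icKO nerves and 36.6 ± 2.7 FPKM in flox nerves (SD, n = 3 each; limma, adjusted p = 0.0120).

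Of 27 genes of the tricarboxylic acid cycle and pyruvate dehydrogenase 7 were lower (25.9%) and 5 higher (18.5%), near the 22.1% and 20.8% of all genes. Without icKO 3 the falls numbered 14, and without flox 2 or flox 3 the rises numbered 3 and 2. Pdk4, the kinase that switches pyruvate dehydrogenase off, was at 35.6, 40.7 and 47.0 FPKM in icKO nerves and at 9.42, 5.08 and 5.64 FPKM in flox nerves, higher by 2.48 ± 0.22 (limma, adjusted p = 6.98e-04). Pyruvate carboxylase, Pcx, which is abundant in adipocytes, averaged 9.69 ± 1.02 FPKM in icKO nerves and 32.4 ± 5.9 FPKM in flox nerves (SD, n = 3 each; limma, adjusted p = 7.60e-04). The pyruvate carrier Mpc1 and the pyruvate dehydrogenase subunit Pdha1 were lower by 0.73 and 0.65. Adipocyte markers, as given above, were lower in the same libraries, and their part in the values of Pcx, Mpc1 and Pdha1 was not tested.

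Genes that maintain and express mitochondrial DNA were more often higher than lower. Of 30 tested 9 were higher and 3 lower, with a median of 0.18. Among all genes tested 20.8% were higher and 22.1% lower, and the difference from them was not tested. Grsf1, a protein of the mitochondrial RNA granules, was at 29.6, 35.7 and 31.3 FPKM in icKO nerves and at 17.7, 17.9 and 18.7 FPKM in flox nerves, higher by 0.79 ± 0.09 (limma, adjusted p = 0.00131). Pnpt1, a polynucleotide phosphorylase, averaged 9.57 ± 0.14 FPKM in icKO nerves and 6.20 ± 0.84 FPKM in flox nerves (SD, n = 3 each; limma, adjusted p = 0.00591). Mgme1, a nuclease of mitochondrial DNA, and Slirp, which stabilises mitochondrial messenger RNA, were lower by 0.85 and 0.80. The count of rises was 3 to 7 on leaving out 1 library, with 5 without flox 2 and 3 without flox 3. It was 3 without icKO 3 and flox 1 together. The rises in this list were thus fewer than 9 in each of these fits. Rises over all genes went from 2670 to 1949 without flox 2 and 1838 without flox 3. Without icKO 3 and flox 1 together they numbered 2137.

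Of 11 regulators of mitochondrial biogenesis tested 2 were higher (18.2%, near the 20.8% of all genes), and the other 9 were not called. Yy1 and Sirt1 were higher by 0.33 and 0.60 (limma, adjusted p = 0.0142 and 0.0204). Yy1 was not called without flox 2 or flox 3 (adjusted p = 0.0504 and 0.0573), nor Sirt1 without icKO 2 or flox 3 (adjusted p = 0.0627 and 0.0524). Of 34 genes of the outer membrane, protein import and cristae 11 were lower (32.4%, against 22.1% of all genes). Higher were 4 (11.8%, against 20.8%), and without flox 3 there were 7 falls. The import channel subunits Timm22 and Timm17b and the pore protein Vdac2 fell by 0.93, 0.67 and 0.76, while the import motor subunit Timm44, the fusion protein Mfn1 and the import receptor Tomm20 were higher by 0.67, 0.64 and 0.52 (limma, adjusted p between 0.00119 and 0.00529 for these 6).

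**Figure D5:**
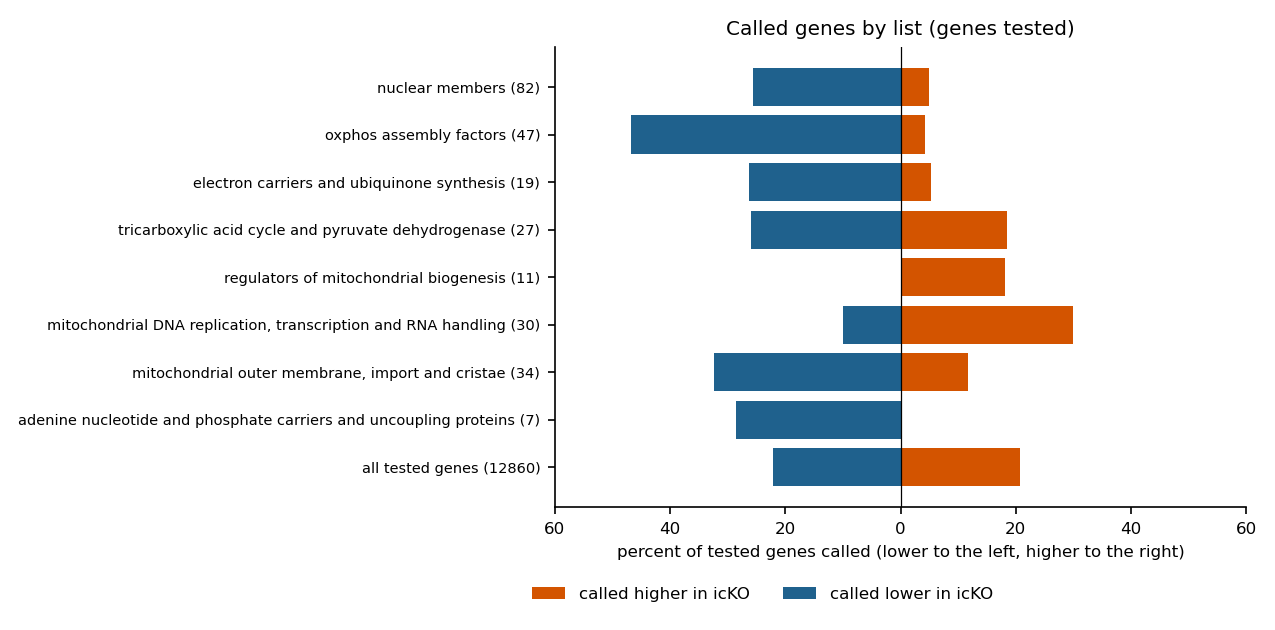
Percent of tested genes called lower (blue, left) and higher (orange, right) in icKO nerves, for the nuclear members, 7 lists of related mitochondrial genes and all 12860 genes tested, with the number tested in brackets. Assembly factors reach furthest to the left, with 22 of 47 lower, and genes of mitochondrial DNA maintenance and expression furthest to the right among the lists, with 9 of 30 higher.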

How the data were processed

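The values are FPKM as deposited by the authors, for 55335 genes in 3 icKO and 3 flox libraries. The build GRCm39 and the tools StringTie 1.3.1c, STAR, DESeq2 1.16.1 and FastQC 0.11.2 are named, without role or order, per the submitters' processing notes. Strand handling, annotation release and how multi-mapping fragments were assigned: not given in the sources used here. Values in FPKM are shares of a library, so abundant transcripts lower the others, and near-identical genes can share fragments. The table holds no counts, and the depth (17200000 to 20600000 fragments) was estimated from the smallest steps of FPKM, so it is approximate.

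Symbols, biotypes, lengths and transcript sequences came from GENCODE M21 (GRCm38), matched by gene ID for 55154 IDs and not for 181. The newer names Atp5if1 and Atp5md appear there as Atpif1 and Usmg5, outside the symbol rule, and neither was called (adjusted p = 0.124 and 0.664). Promoter windows came from RefSeq, GRCm38.p6.

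The 12860 genes whose mean reached 1 FPKM were fitted on log2(FPKM + 1) with limma 3.58.1 in R 4.3.3 (two-sided moderated test, variance trend, no covariate), with Benjamini-Hochberg adjustment over all of them and calls under 0.05. Such differences understate changes of low genes. The procedure was tested on simulated data. Isoform shares were compared with an exact permutation test in SciPy 1.17.1, and transcripts were matched with Biopython 1.88 and BLAST. Members and lists were chosen with earlier results of these data known, and lists got no test. Named were all mitochondrially encoded genes, the catalytic core subunits, tissue-restricted isoforms, the 3 largest separated calls per direction in each complex, and up to 3 calls per direction from each list. Others named beside these, and the choice of printed promoters, followed after their values were seen. The values of 1 nuclear member are not reported here, though it is part of the counts. The 20 alternatives are given at the end.

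Same-numbered libraries were checked for pairing by the correlation of their deviations from the group means, which did not pair them.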

Additional observations from a re-analysis of the deposited data

How the results depend on the processing

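Alternatives were a pseudocount of 0.1, leaving out the filter or raising it to 5 FPKM, TPM, a common sum without mitochondrially encoded genes, quantile scaling, median-of-ratios scaling, a replicate block, no variance trend, robust estimation, a muscle covariate, and leaving out each library or the muscle-richest library of each group. Added after seeing the data were mitochondrial genes summed with their nuclear copies and a common sum without both. The medians of the nuclear members of each complex and of the mitochondrially encoded genes kept their sign under all 20 and moved by less than 1 SD between libraries. For many of the 20 this is no check. The replicate block, no variance trend and robust estimation leave the differences unchanged, and summing copies changes no nuclear member. Leaving out 1 of 3 libraries of a group could hardly move a median by 1 SD. The number of nuclear members called higher, 4, was 2 with the replicate block and 1 to 3 without 1 library. The number called lower, 21, was 11 to 36 without 1 library and 18 to 30 otherwise. Over all genes the number lower, 2846, was 1912 to 2900 without 1 library. Of mitochondrially encoded members, the 1 higher was 0 without a filter and without the muscle-richest libraries, and 0 to 1 without 1 library. The 3 lower were 1 without a filter, 0 without the muscle-richest libraries, 1 with the muscle covariate and 1 to 4 without 1 library. Without a filter 30465 genes were tested. The cause of the shifts was not tested.

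Replicate numbers did not pair the libraries (correlations of -0.10, 0.04 and -0.05). With the replicate block 4596 of all genes were called, against 5516 without it, and 21 nuclear members were lower.

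For the 48 members named by rule, 862 comparisons with an alternative kept direction and side of the threshold, 55 lost a call, 19 gained one and 18 changed sign, the last all in 8 members not called in the first place. Of members named beside these, Cox7a2 and Atp5g2, neither of them called, changed sign. Cox7a2 was at 0.0639 without icKO 2. Atp5g2 was at -0.0106 in the main fit and ranged from -0.0799 to 0.0532 over the alternatives. No called member changed sign. Without the muscle-richest libraries the differences were -0.0467 for Ndufv1, -0.1092 for Ndufs3 and -0.0289 for Uqcrfs1. With the muscle covariate they were 0.0348 for mt-Nd4l and 0.2976 for Cox6a2, and with median-of-ratios scaling 0.01 for mt-Nd4l. Without 1 library the ranges were -0.123 to 0.1564 for mt-Nd4l, -0.059 to 0.0628 for Ndufv1, -0.0417 to 0.1539 for Ndufs3, -0.1481 to 0.0302 for Sdhd, -0.0436 to 0.1511 for Uqcrfs1, -0.0266 to 0.2321 for Uqcrc1, -2.0442 to 0.2706 for Cox6a2 and -0.1581 to 0.1931 for Ndufa4l2. Depth limits the low members: Cox6b2, Ndufb2 and Cox7a1 rest on about 13, 23 and 26 fragments per library.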
